A study of Homo sapiens with 63 samples.

Results

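Fractions 8 to 12 of 2 polysome gradients were compared, 1 from HEK293 cells deprived of amino acids and 1 from cells deprived of serum. The members were picked out by fraction number and condition label, which gave 10 of the 63 samples of the series, 5 from each gradient. HEK293 is a human embryonic kidney line, here grown in DMEM with 10% fetal bovine serum and antibiotics. The amino acid-starved cells were held for 1 h in EBSS, a buffered salt solution, with MEM vitamins, 10% serum and antibiotics. The serum-starved cells were held for 2 h without serum. Cells in log phase, whose fractions 8 to 12 are given as a reference, had both nutrients. All cells were treated with cycloheximide for 10 min, which holds ribosomes on mRNA, and poly(A)+ RNA of each fraction was sequenced. The missing nutrient, the medium and the length of starvation changed together between the starved gradients and cannot be told apart. Whether low or high fraction numbers held the heavier complexes is not in the labels. Each condition had 1 gradient, so no value has a replicate, no test was made, and every SD below is the spread over 5 neighbouring fractions of the same gradient.

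In growing cells most mRNAs carry several ribosomes and sediment with polysomes. When amino acids are scarce, uncharged tRNA activates the kinase GCN2, which phosphorylates initiation factor eIF2. This slows initiation in general and raises translation of ATF4, a transcription factor that switches on genes of amino acid synthesis and uptake. Loss of amino acids or of growth factors also lowers mTORC1 activity, and with it the translation of mRNAs that begin with a terminal oligopyrimidine (TOP) tract, chiefly those of ribosomal proteins. Serum itself carries growth factors and bone morphogenetic proteins that sustain transcription of immediate early genes and of SMAD target genes, and lipoproteins whose absence raises sterol synthesis genes.

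Values are deposited signal rescaled to 1000000 per fraction after spike-in RNAs were dropped, and are given per 1000000. What the authors scaled the signal to is unknown here, and the deposited totals of the 10 columns ran from 7856961 to 29912342. A difference is the mean over fractions 8 to 12 of log2(value + 1) without amino acids minus without serum, which understates the change of low genes. A value joins how much of an mRNA the cells held with how much of it sedimented in that fraction, and inside these fractions the pair cannot be told apart. Of 11074 genes, 5423 had a mean of at least 5 per 1000000 over the 10 columns and were compared. A gene could pass through 1 gradient alone, which favours genes that differ, so counts over a list are not independent of the filter. Of 9 HEK293 markers in the table, 7 passed this filter, among them VIM, KRT18 and NEFM. Of 20 markers of blood, endothelial, fibroblast, muscle and liver cells, 2 were in the table and 0 passed.

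The median gene was lower without amino acids, with a difference of -0.36 (quartiles -0.56 and -0.15), and 88.3% of genes lay below 0. The median was -0.07 in fraction 8, -0.27 in fraction 9, -0.55 in fraction 10, -0.62 in fraction 11 and -0.28 in fraction 12. Fraction 8 stood apart. Its gene by gene differences had correlations of 0.19 to 0.28 with those of fractions 9 to 12, which had 0.40 to 0.68 among themselves. These are correlations across genes, which share their libraries. The general shift depended on the scaling, since the median was 0.10 in the deposited signal without rescaling and -0.46 after scaling to spike-in RNAs. Differences are therefore also given relative to the median gene of the same fraction.

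A gene met the fold rule when its difference reached 1.5-fold with the same sign in all 5 fractions, a rule of size and not a test. By this rule 6 genes were higher without amino acids (0.111% of those compared) and 1015 were lower (18.7%). Relative to the median gene 89 were higher (1.64%) and 139 were lower (2.56%). These counts moved with fraction 8: without it 9 genes were higher and 1676 lower, and relative to the median gene 204 and 215. Scaling set the balance of the first pair, with 145 higher and 122 lower under 75th percentile scaling and 244 and 68 in the deposited signal. Scaling to spike-in RNAs gave 5 higher and 1415 lower, and kept 998 of the 1015 lower calls. At 2-fold, 2 genes were higher (0.0369%) and 93 lower (1.71%). Under 75th percentile scaling 86 of the 89 and 136 of the 139 relative calls were kept. Centring removes any constant factor of a column apart from the 1 added to each value, so this agreement was largely set by construction. With 5 added in place of 1, 26 of the 89 and 36 of the 139 were kept. With the serum-starved fraction numbered 1 higher as partner 50 and 60 were kept, and with the one numbered 1 lower 66 and 65. The 5 values of 1 gradient lay wholly above those of the other for 1 gene higher without amino acids (0.0184%) and 64 lower (1.18%).

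**Figure D1:**
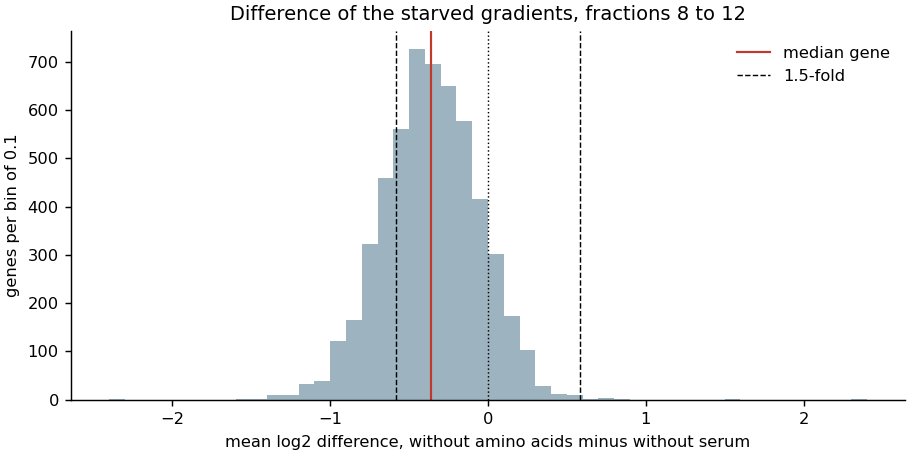
Number of genes per bin of 0.1 against the mean log2 difference over fractions 8 to 12, without amino acids minus without serum, for 5423 genes, with the median gene as a red line, 0 as a dotted line and 1.5-fold as dashed lines. The bulk lies below 0 with its median at -0.36, and few genes lie beyond the dashed line on the right.

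The mRNAs of 84 ribosomal proteins filled most of the signal in both starved gradients and held a larger share without amino acids. Their share of fractions 8 to 12 in order was 78.9%, 74.8%, 72.7%, 69.3% and 57.1% without amino acids. Without serum it was 79.0%, 70.5%, 64.4%, 59.9% and 52.3%. The shares were nearly equal in fraction 8 and larger without amino acids in the other 4 fractions, by 5.36 ± 3.71 points over all 5. In log phase the share was 71.0%, 59.1%, 54.9%, 52.8% and 48.2%, below both starved gradients in every fraction. Genes outside the ribosomal and other TOP lists were left with 14.0%, 16.5%, 18.1%, 23.4% and 36.0% of the signal without amino acids, and with 14.2%, 19.6%, 24.6%, 31.2% and 40.6% without serum. A larger share for ribosomal mRNAs lowers every other value per 1000000 by construction. With columns rescaled over genes outside the ribosomal lists the median difference was -0.15.

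**Figure D2:**
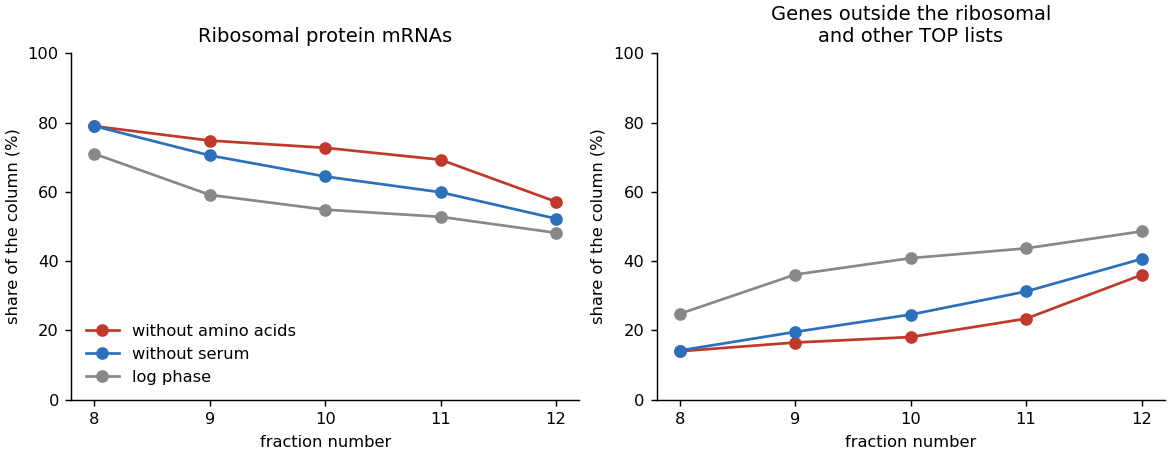
Share of the signal (%) held by mRNAs of 84 ribosomal proteins (left) and by genes outside the ribosomal and other TOP lists (right), against fraction number, with 1 point per fraction and gradient. The share of ribosomal mRNAs without amino acids lies on that without serum in fraction 8 and above it in fractions 9 to 12, and both starved gradients lie above log phase.

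Gene by gene, ribosomal protein mRNAs stood together above the median gene. Large subunit proteins had a median relative difference of 0.46 (0.53 without fraction 8), and all 51 lay above the median gene, from RPL26L1 at 0.07 to RPL24 at 0.70. Small subunit proteins had a median of 0.50 (0.62 without fraction 8), with all 33 above, from RPS2 at 0.20 to RPS10 at 0.62. Over all compared genes the median of this quantity was 0.00. Without fraction 8 the medians of the other TOP, ATF4 target, SMAD target, immediate early, sterol and SR and CLK lists moved by less than 0.1. RPS19, a small subunit protein, had values of 51029, 41520, 33164, 30434 and 21016 without amino acids and 43630, 35847, 28193, 26439 and 18963 without serum. It was higher without amino acids in every fraction by nearly the same step, with a difference of 0.20 ± 0.03. RPL24, a large subunit protein, was lower in fraction 8, with 3465 against 4218, and higher in the other 4 fractions, with 3623, 4436, 4042 and 3353 against 3125, 3030, 2388 and 2395. No ribosomal protein gene met the fold rule before centring, and only RPLP1 (0.65) and RPS3 (0.60) met it relative to the median gene, 2 of 84, near the 1.64% of all genes.

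The 24 other TOP mRNAs stood less far above, with a median relative difference of 0.18 and 18 of 24 above the median gene. EEF1A1, the elongation factor that brings aminoacyl-tRNA to the ribosome, had 27540, 39732, 45975, 33125 and 29724 without amino acids and 27471, 45516, 55044, 40357 and 30393 without serum. Its values were nearly equal in fraction 8 and lower without amino acids in the other 4 fractions, a difference of -0.15 ± 0.13 and of 0.20 relative to the median gene. In log phase EEF1A1 held between 8112 and 15345, below every starved value. PABPC1, the cytoplasmic poly(A)-binding protein, lay at -0.11 relative to the median gene, on the other side from EEF1B2, another elongation factor subunit, at 0.53. With the serum-starved fraction numbered 1 lower as partner, the median of the other TOP list was -0.02.

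The 6 genes higher without amino acids were ID1, ID3, NFKBIA, NECTIN4, MSRB2 and SESN2. ID1 and ID3 are inhibitors of basic helix-loop-helix transcription factors and classical targets of bone morphogenetic protein signalling through SMAD proteins. ID1 (chromosome 20, 31605289 to 31606510, GRCh38.p14) had values of 16.6, 10.6, 7.36, 11.6 and 27.0 per 1000000 without amino acids and 2.16, 1.70, 1.40, 1.89 and 2.20 without serum. It was the gene with no overlap between the gradients in this direction, with a difference of 2.33 ± 0.51, or 5.02-fold. In log phase ID1 had 17.1, 14.7, 15.2, 30.9 and 34.4, so the amino acid-starved values lay nearer to growing cells than the serum-starved ones did. ID3 (chromosome 1, 23557926 to 23559501) had 31.0, 43.5, 36.3, 60.7 and 115.7 without amino acids and 7.80, 16.9, 13.2, 21.4 and 36.9 without serum. Each fraction was higher without amino acids, by 1.53 ± 0.22, although the lowest values of 1 gradient overlapped the highest of the other. Both lay below log phase in every fraction, where ID3 ran from 114.7 to 340.8.

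Of 13 SMAD and BMP target genes in the table, 6 passed the filter. Relative to the median gene none of the 6 lay below 0, and their median was 0.49. Before centring the list median was 0.13 ± 0.36, with 3 members above 0 and 3 below. ID1, ID3 and HES1 met the rule relative to the median gene, 3 of 6 against 1.64% of all genes, with HES1 at 0.71 ± 0.38. ID1 and HES1 passed the filter only through the amino acid-starved gradient, so this count is not independent of their difference. HES1, a repressor also driven by Notch, had 10.8, 5.50, 4.34, 3.88 and 6.33 without amino acids against 4.53, 4.17, 2.94, 5.60 and 4.82 without serum, and was lower in fraction 11. HEY1, another repressor of this family, and ID4 lay at the median gene, at 0.01 each. The list had 6 genes and its median was 0.19 for members with a mean of at least 20. SMAD6, an inhibitor of the pathway, was below the filter and had a mean of 0.82 in both starved gradients.

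CYR61 and CTGF, secreted matrix proteins that answer both serum and the co-activators YAP and TAZ, were also below the filter. CYR61 had 12.4, 5.66, 6.72, 7.36 and 9.01 without amino acids, 1.79, 1.43, 1.84, 1.02 and 2.29 without serum, and 6.05 to 10.0 in log phase. Its starved values did not overlap, with a difference of 1.76 ± 0.37. CTGF had between 1.03 and 3.51 without amino acids and between 0.241 and 1.72 without serum, and its values overlapped.

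NFKBIA, the inhibitor that holds NF-kappaB in the cytoplasm, had 9.09, 10.1, 10.2, 14.1 and 20.2 without amino acids and 5.06, 3.69, 5.03, 7.25 and 12.4 without serum. It was higher in each fraction, by 0.88 ± 0.22, and its values without amino acids overlapped those of log phase, which ran from 9.45 to 15.1. NECTIN4, a cell adhesion protein, differed by 0.74 ± 0.30 and MSRB2, a mitochondrial methionine sulfoxide reductase, by 0.72 ± 0.46 (0.56, short of the rule, without fraction 9). Without fraction 8 SESN2 stood at 0.42 and left the rule.

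**Figure D3:**
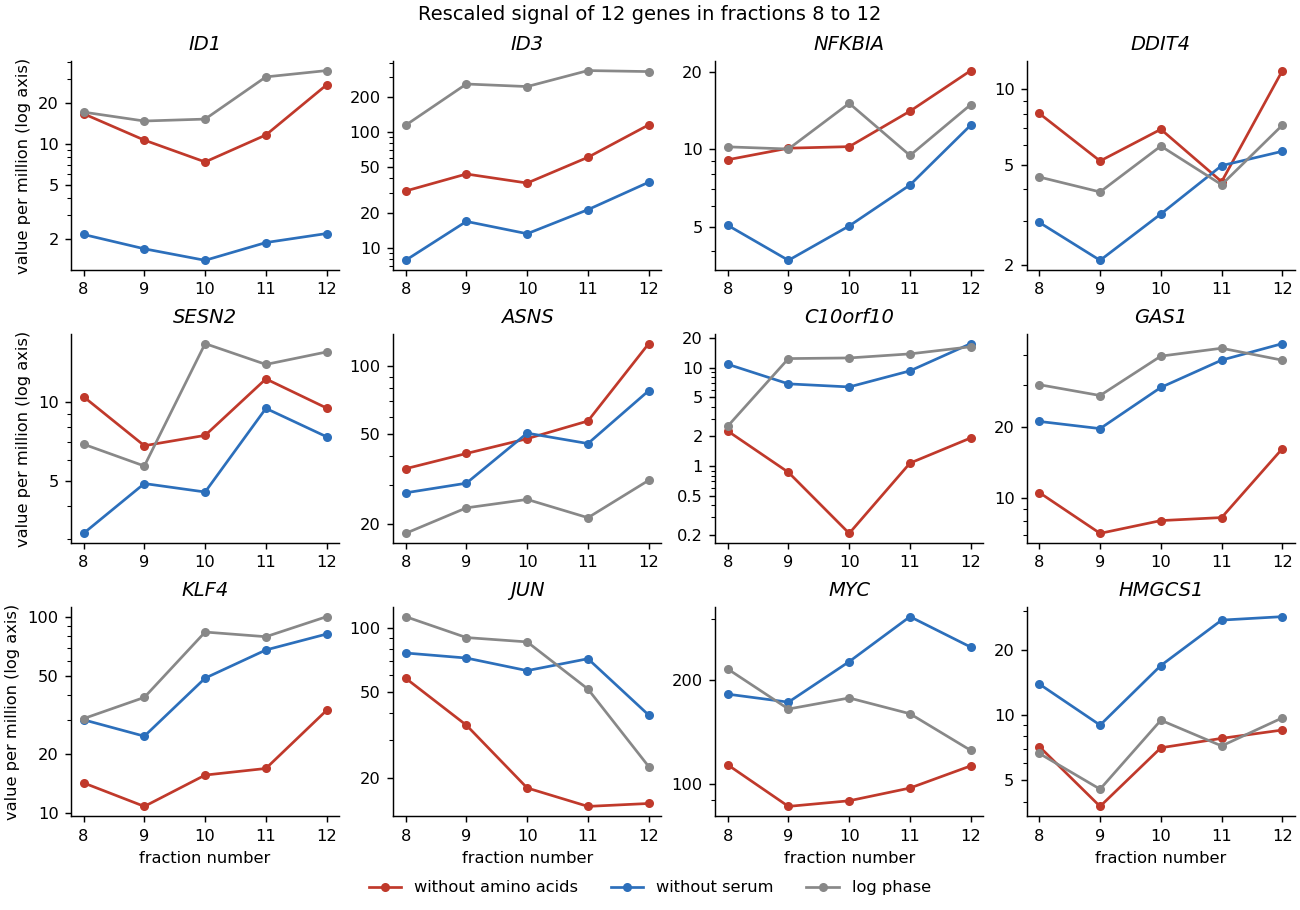
Rescaled value per 1000000 (log axis) of 12 genes against fraction number in 3 gradients, with 1 point per fraction. The line without amino acids lies above that without serum in every fraction for ID1, ID3, NFKBIA and SESN2, in 4 of 5 for DDIT4 and ASNS, and below it in every fraction for C10orf10, GAS1, KLF4, JUN, MYC and HMGCS1.

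Genes switched on by ATF4 lay mostly above the median gene. Of 32 measured genes, 24 passed the filter, and 23 of these lay above, with a median relative difference of 0.48. ASNS, DDIT3, DDIT4, JDP2, PCK2, SESN2 and STC2 met the relative rule, 7 of 24 (29.2%, against 1.64% of all genes), and none met it in the other direction. Before centring the list median was 0.12 ± 0.23, with 15 members above 0 and 9 below. The fold rule was then met by SESN2 upward and XPOT downward, 1 of 24 each (4.17%, against 0.111% and 18.7% of all genes). DDIT4, an inhibitor of mTORC1, had 8.01, 5.18, 6.92, 4.28 and 11.9 without amino acids and 2.95, 2.08, 3.19, 4.96 and 5.66 without serum. It was higher in 4 fractions and lower in fraction 11, with a difference of 0.78 ± 0.54 (1.01 without fraction 11) and of 1.13 relative to the median gene. DDIT4 passed the filter only through the amino acid-starved gradient. SESN2, a leucine sensor that also restrains mTORC1, had 10.4, 6.80, 7.44, 12.2 and 9.44 against 3.16, 4.88, 4.54, 9.42 and 7.35, a difference of 0.63 ± 0.48.

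ASNS (chromosome 7, 97851677 to 97928441), which makes asparagine, had 35.2, 41.2, 47.9, 57.4 and 126.3 without amino acids and 27.6, 30.4, 50.7, 45.6 and 78.1 without serum. Fraction 10 was lower and the other 4 were higher, giving 0.34 ± 0.28 and 0.70 relative to the median gene. Fraction by fraction both starved gradients lay above log phase, where ASNS had 18.2 to 31.3 per 1000000, although the ranges overlapped. STC2, a secreted glycoprotein, stood at 0.91 relative to the median gene, and JDP2, a repressor of the AP-1 family, at 0.92. DDIT3, the stress factor also called CHOP, stood at 0.26 ± 0.08 before centring and 0.61 after it, and was short of the relative rule without fraction 10 (0.56) or 11 (0.57). PCK2, the mitochondrial phosphoenolpyruvate carboxykinase, stood at 0.65, and at 0.54 without fraction 8. XPOT, the tRNA exporter, was the 1 member below the median gene, at -0.32.

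ATF4 mRNA itself had 1368, 1667, 1540, 1730 and 2444 without amino acids and 1036, 1603, 1696, 1926 and 2112 without serum. The gradients crossed, with a difference of 0.07 ± 0.24 and 0.43 relative to the median gene. The wider list of stress mRNAs with upstream open reading frames had a median of -0.14 relative to the median gene over 16 members. DDIT3 was its highest member and SLC35A4, whose mRNA carries a conserved upstream frame, its lowest at -0.59. Cytosolic aminoacyl-tRNA synthetases, several of them ATF4 targets, had a median of 0.01 with 10 of 20 above, from FARSA at -0.24 to TARS at 0.32.

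Because ATF4 binds amino acid response elements, the promoters of the compared genes were searched for TGATGNAA on both strands from 250 bases before to 50 bases after each start in RefSeq GRCh38.p14. The search covered 4577 promoters, of which 72 held a match (1.57%). Among genes higher relative to the median gene 3 of 75 did (4.00%), and among those lower 0 of 118. Of 19 ATF4 target promoters 4 did (21.1%), those of ASNS, ATF3, SLC3A2 and CARS. The list names genes already taken as ATF4 targets, so this share is not independent of the motif. The following 100-base stretches are shown because they hold the matches upstream of the start in the genes that met the relative rule, and in ATF3, a stress transcription factor at 0.58. Each is written 5′ to 3′ on the strand of its gene, with the match in capitals. In HERPUD1 the motif lies on the other strand, so the capitals show its reverse complement.
ASNS (chr7:97872423-97872522, minus strand): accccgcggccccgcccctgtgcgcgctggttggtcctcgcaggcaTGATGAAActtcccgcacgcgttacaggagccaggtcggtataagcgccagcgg
MTHFD1L (chr6:150866311-150866410, plus strand): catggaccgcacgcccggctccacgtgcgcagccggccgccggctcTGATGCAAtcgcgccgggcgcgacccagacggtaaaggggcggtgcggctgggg
HERPUD1 (chr16:56931920-56932019, plus strand): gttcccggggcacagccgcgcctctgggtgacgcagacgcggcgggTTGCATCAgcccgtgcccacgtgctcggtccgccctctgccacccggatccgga
ATF3 (chr1:212565170-212565269, plus strand): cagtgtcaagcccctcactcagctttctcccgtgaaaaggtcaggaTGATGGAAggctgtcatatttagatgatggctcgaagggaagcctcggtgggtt

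Counted from the start used in the search, the matches begin at -68 in ASNS, -129 in MTHFD1L, -176 in HERPUD1 and -191 in ATF3. For ASNS, on the minus strand, that start lies inside the gene span given above and not at its outer end of 97928441. MTHFD1L, a mitochondrial enzyme of one-carbon metabolism, stood at 0.64 relative to the median gene. HERPUD1, part of the machinery that clears misfolded proteins from the endoplasmic reticulum, stood at 0.65, and at 0.56 without fraction 9. The cAMP response element TGACGTCA was in 4.00% of all promoters, and in 6.67% and 5.93% of those higher and lower by the relative rule. In the same order the AP-1 site TGANTCA was in 3.69%, 4.00% and 3.39%, and in 2 of 19 ATF4 target promoters (10.5%). The serum response element was in 0.918%, 1.33% and 0.847%. The BMP response element GGCGCC was in 32.1%, 24.0% and 33.9%, and in 0 of 5 SMAD target promoters. These letter matches describe the windows searched and are not evidence of binding.

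Genes lower without amino acids included growth regulators, serum-induced factors and sterol enzymes. The lowest relative difference of any compared gene was that of C10orf10 (DEPP1), a target of FOXO transcription factors (chromosome 10, 44976128 to 44978809). It had 2.27, 0.863, 0.207, 1.07 and 1.93 per 1000000 without amino acids and 10.9, 6.85, 6.38, 9.29 and 17.6 without serum. The gradients did not overlap, and the difference was -2.30 ± 0.35, or 4.94-fold. In log phase it had 2.54 in fraction 8 and 12.4 to 16.3 in fractions 9 to 12. Of 26 FOXO and growth factor withdrawal genes, 5 passed the filter and C10orf10 alone met the relative rule, 1 of 5 against 2.56% of all genes. C10orf10 passed the filter only through the serum-starved gradient, with a mean of 10.2 against 1.27 without amino acids. PINK1, a mitochondrial kinase, stood at -0.35 and BNIP3, a mitophagy receptor, at 0.15.

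GAS1, a membrane protein of arrested cells that was first cloned for its rise on serum withdrawal, had 10.6, 7.12, 8.06, 8.30 and 16.2 without amino acids and 21.1, 19.7, 29.3, 38.2 and 44.8 without serum. The values did not overlap, with a difference of -1.50 ± 0.43, and log phase lay near the serum-starved gradient at 27.1 to 42.8. HEXIM1, an inhibitor of the elongation kinase P-TEFb, also stood at -1.50 ± 0.70. It had 32.0, 22.1, 10.2, 7.50 and 6.01 without amino acids and 44.5, 51.3, 42.7, 39.2 and 20.8 without serum, so the gap was small in fraction 8 and wide from fraction 10 on. UBE2Z, an E2 enzyme that loads ubiquitin and FAT10, stood at -1.44 ± 0.27 without overlap.

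Genes of the immediate early list, a class named for fast induction by serum, split. Whether each member is induced by serum in these cells was not tested. Of 39 measured genes, 14 passed the filter, of which 5 lay above the median gene and 9 below, with a median of -0.09. This median changed sign without a filter (0.10) and with the serum-starved fraction numbered 1 higher (0.11), and was -0.76 for members with a mean of at least 20. BTG1, BTG2, JUN, KLF4 and MYC met the relative rule downward, 5 of 14 (35.7%, against 2.56% of all genes). BTG2 passed the filter only through the serum-starved gradient, with a mean of 6.99 against 3.05 without amino acids. MYC, the growth-promoting transcription factor, had 114, 86.1, 89.3, 97.2 and 113 without amino acids and 182, 172, 225, 304 and 248 without serum. Its values did not overlap, with a difference of -1.15 ± 0.36, and log phase lay between 125 and 215.

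KLF4, a zinc finger transcription factor, had 14.2, 10.8, 15.6, 16.9 and 33.5 against 29.9, 24.7, 48.9, 68.1 and 82.1, lower in every fraction by 1.39 on average (-1.39 ± 0.38). JUN, a subunit of AP-1, had 58.2, 35.1, 17.9, 14.7 and 15.1 against 76.3, 72.3, 63.1, 71.8 and 39.1. Its difference of -1.34 ± 0.70 was smallest in fraction 8 (-0.39) and largest in fraction 11 (-2.22). BTG1 and BTG2, antiproliferative partners of the deadenylase complex, stood at -0.68 and -0.66 relative to the median gene. ATF3 at 0.58 and IER2 at 0.24 lay on the other side. EGR1, the classical serum-induced factor, was below the filter, with 0.863 to 1.93 without amino acids and 2.53 to 4.11 without serum and no overlap. FOS was below it too, with means of 0.66 and 1.22.

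Sterol genes lay mostly below the median gene. The median of the 19 compared members was -0.56, or -0.20 relative to the median gene, with 12 of 19 below it. HMGCS1, MSMO1 and SQLE, 3 enzymes of cholesterol synthesis, met the relative rule downward, 3 of 19 (15.8%, against 2.56% of all genes). HMGCS1, which makes HMG-CoA for the mevalonate pathway, had 7.16, 3.80, 7.07, 7.81 and 8.53 without amino acids and 13.9, 8.99, 16.9, 27.3 and 28.4 without serum. The gradients did not overlap, the difference was -1.28 ± 0.36, and log phase lay with the amino acid-starved gradient at 4.56 to 9.71. MSMO1 stood at -1.14 ± 0.55 and SQLE at -1.20 ± 0.55. INSIG1, which retains the sterol sensor in the endoplasmic reticulum, stood at -0.77 and the transcription factor SREBF2 at -0.76. ACAT2 was the highest member, at 0.33 relative to the median gene. The list median was 0.15 when a mean of at least 20 was required, a filter that removes the low members named above.

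**Figure D4:**
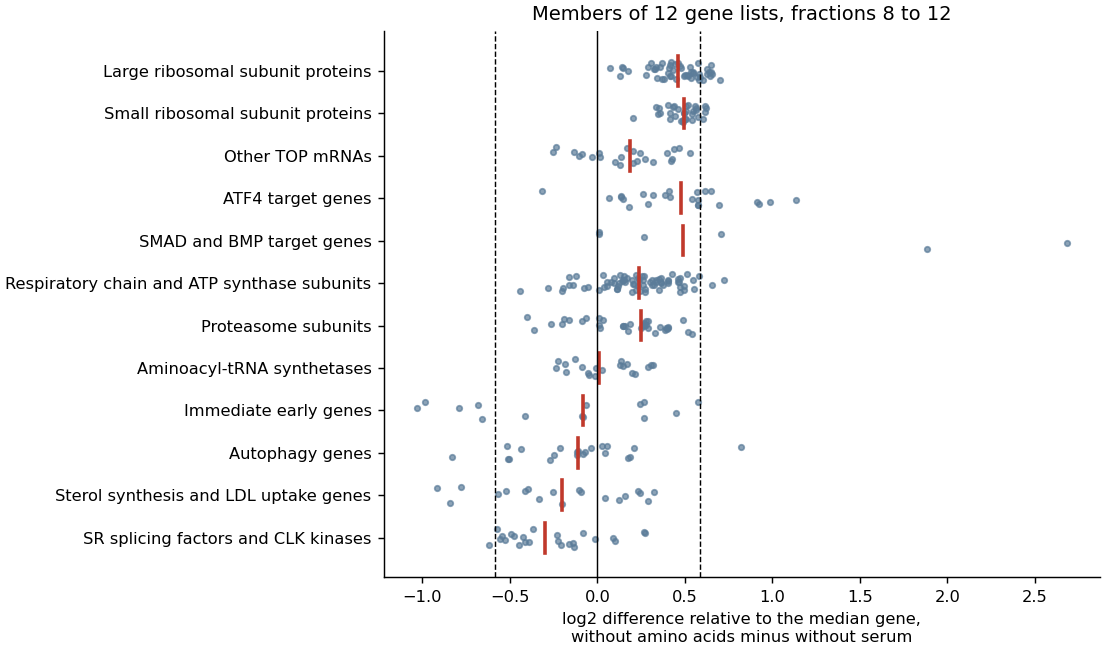
Difference relative to the median gene (log2) of each compared member of 12 gene lists, with 1 point per gene, the list median as a red bar, the median gene at 0 and 1.5-fold as dashed lines. All ribosomal protein genes lie to the right of 0, ATF4 targets do so with 1 exception, and SR splicing factors and CLK kinases lie mostly to the left.

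Splicing regulators of the SR family and the CLK kinases that phosphorylate them lay mostly below the median gene, with a median of -0.66, or -0.30 relative to the median gene. All 24 compared members were below 0 before centring and 20 of 24 below the median gene. By the fold rule 13 of 24 were lower (54.2%, against 18.7% of all genes), and relative to the median gene 1 of 24 was (4.17%, near the 2.56% of all genes), SRSF5 (-0.62, and -0.57 without fraction 8). SRSF5 had 23.3, 23.9, 35.8, 33.1 and 69.3 without amino acids and 43.2, 40.5, 70.8, 84.5 and 137 without serum. CLK1 stood at -0.55 and SRSF6 at -0.56 relative to the median gene, while SRSF9 lay at 0.27.

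Autophagy genes had a median relative difference of -0.11 over 21 members, and the relative rule was met by 1 in each direction (4.76%, against 1.64% of all genes higher and 2.56% lower). By the fold rule 5 of 21 were lower (23.8%, near the 18.7% of all genes). MAP1LC3B, the LC3 protein of autophagosome membranes, had 16.0, 15.8, 23.5, 23.4 and 61.9 without amino acids and 29.4, 35.4, 68.3, 73.7 and 115 without serum, a difference of -1.19 ± 0.35. ATG3, the enzyme that attaches lipid to LC3, lay on the other side at 0.82 relative to the median gene. The median of 30 lysosomal genes was -0.03, and 0 of them met the relative rule.

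Subunits of mitochondrial and proteasomal complexes stood a little above the median gene. The respiratory chain and ATP synthase list had a median of 0.24 with 65 of 75 above, mitochondrial ribosomal proteins 0.18 with 64 of 77 above, and proteasome subunits 0.25 with 27 of 35 above. NDUFB9 at 0.72 and NDUFV2 at 0.66, both subunits of complex I, met the relative rule upward, 2 of 75 (2.67%), near the 1.64% of all genes. Abundance and gene length moved with the difference. With genes divided into 4 groups of like size by mean value, the median difference was -0.43, -0.42, -0.37 and -0.21 from low to high. With 4 such groups by genomic length it was -0.25, -0.35, -0.41 and -0.41 from short to long. The part of level and length in the medians of these lists and of the ribosomal lists was not tested.

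Other genes lowest without amino acids, among those with a mean of at least 20 per 1000000 without serum, had varied roles. BIRC5, the mitotic survival protein survivin, stood at -1.20 ± 0.40. It was 1 of 7 mitotic genes, of 29 compared (24.1%, near the 18.7% of all genes), that met the fold rule downward. By the relative rule BIRC5 alone did, 1 of 29 (3.45%, near the 2.56% of all genes). Its values were 39.5, 88.5, 130, 135 and 318 without amino acids and 71.1, 223, 387, 397 and 527 without serum. Fraction by fraction both lay below log phase, which reached 1305. CRKL, a signalling adaptor, stood at -1.34 ± 0.66 and went from 9.36 in fraction 8 to a peak of 51.0 in fraction 10 without serum, against a peak of 16.6 in fraction 9 without amino acids. ZNF146, a zinc finger protein, stood at -1.32 ± 0.51, and 7 of 89 compared C2H2 zinc finger genes met the relative rule downward (7.87%, against 2.56% of all genes) and 2 upward (2.25%, against 1.64%). TIMM17A, a subunit of the mitochondrial import channel, stood at -1.16 ± 0.33. BRD8, UBAP1, SMG5, RABIF and GLO1 completed the lowest 15, at -1.24, -1.23, -1.19, -1.18 and -1.15.

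Inside fractions 8 to 12 the rescaled value of the median gene rose with fraction number in both gradients. The slope was 0.32 log2 units per fraction without amino acids and 0.40 without serum. The ribosomal share became smaller, which raises other shares by construction, so these are slopes of shares and not of amounts. HEXIM1 went the other way in both, by -0.59 and -0.25. CRKL had a slope of -0.08 without amino acids and 0.27 without serum. SMIM8 was steeper without amino acids, at 0.82 against 0.48 without serum. These slopes describe 5 points of 1 gradient each.

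The same differences were read in the other fractions of these gradients. ID3 stood at 2.06, 1.89, 1.96 and 2.31 relative to the median gene in fractions 3 to 7, 8 to 12, 13 to 17 and 18 to 22. ID1 stood at 2.94, 2.68, 3.33 and 3.67, NFKBIA at 0.95, 1.24, 1.22 and 1.16, and DDIT4 at 0.97, 1.13, 1.49 and 1.09. C10orf10 was low throughout, at -1.64, -1.95, -2.44 and -2.08, as was GAS1 at -0.60, -1.14, -0.68 and -1.02. JUN, by contrast, stood at -0.01, -0.98, 0.09 and 0.03. The ATF4 target list had medians of 0.25, 0.48, 0.45 and 0.41. Large ribosomal subunit proteins had 0.04, 0.46, -0.34 and 0.04 and small subunit proteins 0.01, 0.50, -0.36 and 0.07, so they lay above the median gene in fractions 8 to 12 and below it in fractions 13 to 17. Sterol genes had -0.16, -0.20, -0.02 and -0.35. Blocks of a gradient share its cells and are not independent, and no difference between blocks was tested.

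Of the 89 genes higher relative to the median gene, 11 met the same rule in fractions 3 to 7, 23 in fractions 13 to 17 and 21 in fractions 18 to 22, and 0 met it in the opposite direction. The rule upward was met there by 0.664%, 1.48% and 3.80% of all compared genes. Of the 139 lower, 8, 19 and 25 did so, against 0.295%, 1.09% and 2.58% of all genes. In fractions 18 to 22, 5 of the 139 (3.60%) met it in the opposite direction, near the 3.80% of all compared genes that met it upward there. GLO1 and EIF4E are 2 of these 5. EIF4E, the protein that binds the mRNA cap, had 4.63, 9.97, 16.7, 16.4 and 36.9 without amino acids and 7.99, 18.6, 34.4, 39.9 and 75.7 without serum, a relative difference of -0.59 ± 0.10 (-0.56, short of the rule, without fraction 12). Both lay below log phase, where it had 35.2 to 221. GLO1, which detoxifies methylglyoxal, had 52.4, 78.6, 135, 136 and 372 against 76.4, 173, 417, 362 and 781, a relative difference of -0.79 ± 0.22.

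**Figure D5:**
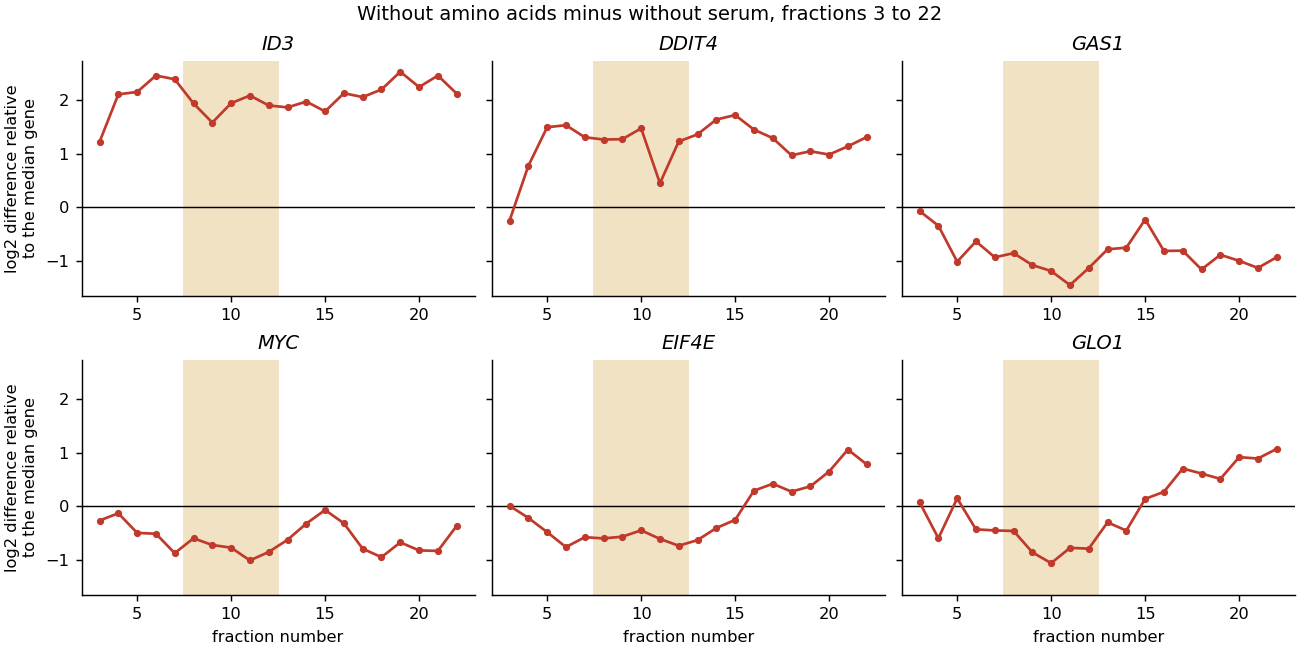
Difference relative to the median gene of each fraction (log2, without amino acids minus without serum) of 6 genes against fraction number 3 to 22, with fractions 8 to 12 shaded and 1 point per fraction. ID3 stays above 0 and GAS1 and MYC below it across the gradient, while EIF4E and GLO1 lie below 0 in fractions 8 to 12 and above it in fractions 18 to 22.

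EIF3CL, at 1.04 relative to the median gene, is a near-identical copy of EIF3C and its value is uncertain. ACTB, a cytoskeletal gene often used as a reference, stood at 0.03 ± 0.23 and GAPDH, a glycolysis enzyme, at 0.01 ± 0.32 before centring, or 0.39 and 0.37 relative to the median gene. GAPDH had 2358, 1970, 1721, 2045 and 2744 without amino acids and 1655, 2341, 1929, 2363 and 2459 without serum, with fractions on both sides. Its log phase values of 222 to 312 lay below both.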

How the data were processed

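Polyadenylated RNA of gradient fractions from HEK293 cells was sequenced as stranded libraries of 75-nt reads, per the labels' protocols. kallisto 0.44.0, sleuth 0.29.0 and hg38 are named in the submitters' processing notes. The deposited signal has 1 value per gene symbol and fraction, on a scale per fraction that no source here states. Library depth is unknown, so no counting error could be given. Lysate libraries were not analysed here. From the signal, 29 ERCC rows and 1 luciferase row were dropped and each column was rescaled to 1000000. Differences used log2(value + 1), a mean of at least 5 per 1000000, and a fold rule of 1.5 with the same sign in 5 of 5 fractions. Relative differences subtract each fraction's median over compared genes, so the relative rule was applied to centred values. With 1 gradient per condition no test was made. The fractions, gene lists and rules were chosen with earlier results of these data known. Named genes were the 15 highest and 15 lowest past the rule with a mean of at least 20 in the higher gradient, extremes of each list, the 10 most abundant genes and a fixed set. Only ID3 qualified as highest. The other genes past the rule upward, members past a rule in a list, UBE2Z, SMIM8, CRKL and HEXIM1 slopes, and the genes that differed between blocks were named after their values were seen. Symbols were matched to RefSeq GRCh38.p14, where 11041 of 11074 had an entry. Sums and means used numpy 2.4.6 and pandas 2.3.3. The fold rule before centring was run on simulated data with known folds and independent noise. That simulation had no imposed general shift and no link between neighbouring fractions, so it does not bear on the calls made here.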

Additional observations from a re-analysis of the deposited data

Results flagged for a closer look

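Relative to the median gene, 5 of the 139 genes lower in fractions 8 to 12 (3.60%) were higher in fractions 18 to 22, where 3.80% of all compared genes were higher by the same rule, so the count lies near the background. The rule asks for 1.5-fold in the mean with the same sign in all 5 fractions of a block. EIF4E, the cap-binding protein, stood at -0.59 in fractions 8 to 12 and at 0.62 in fractions 18 to 22. GJC1, a gap junction protein, stood at -0.62 and 0.72. GLO1, the methylglyoxal-detoxifying enzyme, stood at -0.79 and 0.80. HIST1H2BK, a histone H2B gene, stood at -0.69 and 0.68. NAA50, an N-terminal acetyltransferase, stood at -0.64 and 0.65. In fractions 8 to 12 the rule was missed by GJC1 without fraction 11 (-0.42) or 12 (-0.57), HIST1H2BK without fraction 9 (-0.54), NAA50 without fraction 10 (-0.49) and EIF4E without fraction 12 (-0.56), while GLO1 met it without each fraction in turn. The difference between the blocks was not tested, since each condition had 1 gradient.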

How the results depend on the processing

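Counts past the fold rule are given as higher then lower without amino acids, then the same relative to the median gene. They were 6, 1015, 89 and 139 as reported, 2, 93, 7 and 6 at 2-fold, 1, 58, 29 and 26 when values could not overlap, 3, 422, 26 and 37 with a pseudocount of 5, 18, 1569, 163 and 263 without a filter, and 1, 289, 13 and 57 for genes with a mean of at least 20. A pseudocount of 0.1 gave 10, 1182, 133 and 219. Other scalings gave 145 higher and 122 lower (75th percentile, median gene 0.029), 244 and 68 (deposited signal, median 0.10), 89 and 139 (each fraction's median difference set to 0, median -0.0038), and 28 and 366 (rescaled outside the ribosomal lists, a choice made after seeing the data). Spike-in scaling gave 5 higher and 1415 lower, with a median gene at -0.46. Summed signal gave 16 higher. Fractions 10 to 12 alone, also chosen after seeing the data, gave 15, 2147, 316 and 315. Pairing with the serum-starved fraction numbered 1 higher gave 3, 2624 and, relative to the median gene, 220 higher, with a median gene at -0.70. Pairing with the one numbered 1 lower gave 55, 570 and 222 higher relative to the median gene. Leaving out each fraction in turn gave 7 to 11 higher, 749 to 1676 lower, and relative to the median gene 79 to 204 and 122 to 215, with the median gene between -0.44 and -0.29. ATF4 targets then stood between 0.45 and 0.52, large subunit proteins between 0.39 and 0.53, small subunit proteins between 0.40 and 0.62, other TOP mRNAs between 0.16 and 0.19, SMAD targets between 0.43 and 0.54, immediate early genes between -0.13 and -0.07, sterol genes between -0.25 and -0.17, and SR factors and CLK kinases between -0.37 and -0.27.

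List medians relative to the median gene were 0.37 (pseudocount 5), 0.37 (no filter) and 0.31 (mean of at least 20) for ATF4 targets. Sterol genes stood at -0.12 with a pseudocount of 5, -0.11 for summed signal and 0.15 at a mean of at least 20, a filter that leaves fewer members. Immediate early genes stood at 0.10 without a filter, -0.76 at a mean of at least 20, 0.11 with the serum-starved fraction numbered 1 higher and -0.52 with the one numbered 1 lower. SMAD targets stood at 0.19 at a mean of at least 20 and 0.21 with the fraction numbered 1 lower. With the fraction numbered 1 higher, large subunit proteins stood at 0.84, small subunit proteins at 0.94 and other TOP mRNAs at 0.49. With the one numbered 1 lower, other TOP mRNAs stood at -0.025 and SR factors and CLK kinases at -0.48. Large subunit proteins then stood at 0.41 and small subunit proteins at 0.36. Reversed signs under the fraction numbered 1 higher were MTRNR2L8, at 0.13 and 0.81 relative to the median gene, and MTRNR2L4, at 0.89 relative to it. ZNF256 stood at -0.14 relative to the median gene with the fraction numbered 1 lower. The cause was not tested. No paired analysis was possible because each condition had 1 gradient and no replicate numbers. Depth is unknown, so counting error limits low genes to an unknown degree.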
